A study of Homo sapiens with 4 samples.

Results

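The zinc finger genes of chromosome 19 whose symbol is ZNF followed only by digits form a set of 240 among the 19970 protein-coding genes of the GENCODE annotation on chromosomes 1 to 22 and X, and they were chosen by name and position alone. ATAC-seq, in which the Tn5 transposase cuts open chromatin, was carried out in SK-N-BE(2)C, an established line from a neuroblastoma with amplified MYCN. Control cells (2 replicates, genotype wildtype) received a non-targeting control gRNA. The sgSNHG1 cells (2 replicates, labelled SNHG1 knockout) received dual sgRNAs against the long non-coding RNA gene SNHG1. The authors state that SNHG1 was repressed in their clones but not knocked out completely. Per the labels the samples of both groups were transfected with Cas9 constructs, selected with puromycin and expanded from sorted single cells. Differences between clones and effects of SNHG1 depletion therefore cannot be told apart. The replicates of a group were combined before peak calling, which leaves 1 peak list per group, 47610 peaks for the control and 42682 for sgSNHG1. No spread between replicates could be computed, and the conditions were not tested against each other. Among neuroblastoma identity genes, HAND2, ISL1, GATA3, PHOX2A, TBX2, DBH and MYCN had a promoter peak in each list, while TH had none in either list.

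ZNF proteins of this kind hold tandem C2H2 zinc fingers, small zinc-bound folds that together read a stretch of DNA. Many also begin with a KRAB domain, which recruits the corepressor TRIM28 and through it the histone methyltransferase SETDB1 and heterochromatin proteins, and many of them silence transposable elements. On human chromosome 19 such genes lie in long tandem clusters that grew by repeated duplication. In the proteins translated from the canonical transcripts, the median number of C2H2 fingers was 12, with a range from 1 to 36 and the highest number in ZNF208. A pattern of the KRAB A box was found in 177 of the 240 proteins, which is a count of pattern matches and misses divergent domains. Runs of neighbouring genes with start sites at most 500 kb apart and at least 8 genes gave 8 clusters, named here by their first and last gene, and 22 genes were dispersed between them.

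Promoters that the results turn on are shown here from 250 bases before to 50 bases after the transcription start site (TSS), 5′ to 3′ on the strand of the gene, as read from the GRCh38 genome at the start of the GENCODE gene record. ZNF492, ZNF626, ZNF44 and ZNF557 were taken from genes with at least 20 fragments at the peak summit in both lists. Among these, ZNF44 and ZNF492 had some of the largest gains in fold enrichment in the sgSNHG1 list, and ZNF626 and ZNF557 some of the largest losses. ZNF728 had a peak in the sgSNHG1 list alone and ZNF208 had a peak in neither, and these 2 genes were added after their values were seen. Capitals mark CCAAT, the core of the CAAT box, and CCGGAA, the core bound by ETS factors, or their reverse complements.
ZNF492, chr19:22634074-22634373, plus strand: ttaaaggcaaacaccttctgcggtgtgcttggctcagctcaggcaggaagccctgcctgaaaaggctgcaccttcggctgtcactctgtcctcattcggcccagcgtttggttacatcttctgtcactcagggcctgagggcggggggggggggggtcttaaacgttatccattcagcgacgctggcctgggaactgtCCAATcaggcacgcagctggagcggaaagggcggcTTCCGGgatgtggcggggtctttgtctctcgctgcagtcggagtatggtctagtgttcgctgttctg
ZNF728, chr19:23003127-23003426, minus strand: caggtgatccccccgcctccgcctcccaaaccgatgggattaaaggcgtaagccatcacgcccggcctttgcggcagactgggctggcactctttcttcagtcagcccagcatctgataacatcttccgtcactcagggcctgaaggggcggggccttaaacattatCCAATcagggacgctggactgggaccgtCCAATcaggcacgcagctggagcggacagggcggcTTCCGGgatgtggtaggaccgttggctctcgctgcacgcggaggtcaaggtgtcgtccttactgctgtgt
ZNF208, chr19:22010900-22011199, minus strand: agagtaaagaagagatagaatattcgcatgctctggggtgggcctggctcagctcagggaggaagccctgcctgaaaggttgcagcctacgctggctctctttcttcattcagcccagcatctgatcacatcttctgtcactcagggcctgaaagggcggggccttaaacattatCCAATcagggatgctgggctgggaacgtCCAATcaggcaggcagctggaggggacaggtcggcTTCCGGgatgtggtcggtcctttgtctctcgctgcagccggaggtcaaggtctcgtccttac
ZNF626, chr19:20661547-20661846, minus strand: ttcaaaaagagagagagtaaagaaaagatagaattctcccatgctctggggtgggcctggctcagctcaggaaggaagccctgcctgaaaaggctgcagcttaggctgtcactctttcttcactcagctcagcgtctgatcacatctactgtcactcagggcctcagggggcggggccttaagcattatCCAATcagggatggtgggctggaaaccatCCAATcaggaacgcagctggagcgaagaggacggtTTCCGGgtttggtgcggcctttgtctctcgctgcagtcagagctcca
ZNF44, chr19:12294834-12295133, minus strand: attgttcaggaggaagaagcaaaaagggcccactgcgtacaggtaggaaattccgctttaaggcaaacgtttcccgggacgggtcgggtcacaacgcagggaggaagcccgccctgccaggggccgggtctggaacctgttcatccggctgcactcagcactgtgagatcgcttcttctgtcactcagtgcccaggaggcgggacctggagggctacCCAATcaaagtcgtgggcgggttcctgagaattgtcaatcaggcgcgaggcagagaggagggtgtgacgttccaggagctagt
ZNF557, chr19:7069453-7069752, plus strand: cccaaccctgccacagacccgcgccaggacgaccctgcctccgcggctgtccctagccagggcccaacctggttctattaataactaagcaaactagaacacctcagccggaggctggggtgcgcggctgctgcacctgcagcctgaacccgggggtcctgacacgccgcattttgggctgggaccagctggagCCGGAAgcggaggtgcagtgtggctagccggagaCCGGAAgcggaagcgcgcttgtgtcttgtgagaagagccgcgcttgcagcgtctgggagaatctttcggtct

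ZNF492, ZNF728, ZNF208 and ZNF626 belong to the ZNF101-ZNF254 cluster and share long stretches around the CAAT boxes, whereas ZNF44 comes from the ZNF653-ZNF490 cluster and ZNF557 is dispersed. The ZNF557 promoter held no CCAAT and 2 copies of CCGGAA.

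A gene was taken to have a promoter peak where a peak of a list overlapped the 3 kb on either side of its TSS by at least 1 bp. In the control list 152 of the 240 genes (63.3%) had a promoter peak, against 63.0% of all protein-coding genes. In the sgSNHG1 list 149 genes (62.1%) had one, against 58.6% of all. Both lists held a promoter peak for 131 genes and neither list for 70. A peak in the control list alone was found for 21 genes (8.75%, all protein-coding genes 6.17%), and a peak in the sgSNHG1 list alone for 18 genes (7.5%, all 1.84%). In the 1236 other protein-coding genes of chromosome 19 these shares were 8.82% and 3.40%, and in the 236 ZNF genes of other chromosomes 5.51% and 0.847%. The near balance of the lists depended on weak peaks. With only peaks of -log10 q of at least 10, 94 ZNF genes (39.2%) had a control peak and 78 (32.5%) an sgSNHG1 peak. Over all protein-coding genes these shares were 49.3% and 41.5%, so that the control list led there too. At this limit 25 ZNF genes (10.4%, all 9.37%) had a peak in the control list alone and 9 (3.75%, all 1.54%) in the sgSNHG1 list alone. Over the other genes of chromosome 19 these shares were 6.15% and 3.07%.

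Promoter peaks of these genes, like those of the other genes of chromosome 19, were lower than over all protein-coding genes. Fold enrichment compares the fragment pileup at the summit with the background around it (a pseudocount of 1 is added to both), and the pileup itself was solved from it and the -log10 p. The median control pileup was 22 fragments and the median sgSNHG1 pileup 19, against 38 and 30 over all protein-coding genes with a peak and 22 and 21 over the other genes of chromosome 19, and the lowest pileup of any peak was 10 in control and 9 in sgSNHG1. Of the 149 genes with an sgSNHG1 peak, 51.7% had a pileup under 20, against 21.2% of all genes with one and 41.7% of the other genes of chromosome 19. Within that low range, 18 of 77 ZNF genes (23.4%) lacked a control peak, against 12.7% of all protein-coding genes and 18.4% of the other genes of chromosome 19. Of the 72 ZNF genes at a pileup of 20 or more, 0 lacked one. This was near the 0.564% of all protein-coding genes and the 0.321% of the other genes of chromosome 19. On the control side 19 of the 21 genes with a peak in that list alone had a pileup under 20. Over all protein-coding genes this held for 748 of 1233. Of the 56 ZNF genes with a control pileup under 20, these 19 (33.9%) lacked an sgSNHG1 peak. That share was below the 44.6% of all protein-coding genes and close to that of the other genes of chromosome 19 (75 of 227). The part of peak height in the single-list counts was not tested further.

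Median fold enrichment was 6.84 in each list, with a range from 3.56 to 15.6 in the control and from 4.00 to 14.7 in sgSNHG1, and the medians were 7.49 and 7.23 over all protein-coding genes and 5.68 and 5.88 over the other genes of chromosome 19. Most genes had a single promoter peak, 140 of 152 in control and 137 of 149 in sgSNHG1. Its summit lay close to the TSS, within 300 bp for 137 and 135 genes, at a median of -26.5 bp and -38.0 bp (negative values lie upstream). Of the 170 genes with a peak in either list, 97 shared no promoter peak with another protein-coding or lncRNA gene. The window of 3 kb decided few genes. Only a peak between 1 and 3 kb from the TSS was there for 4 genes in each list (ZNF331, ZNF446 and ZNF211 in both, ZNF536 in control and ZNF614 in sgSNHG1). ZNF569 in both lists and ZNF536 in sgSNHG1 had a nearer peak, but their highest peak also lay beyond 1 kb. Just outside, ZNF846 had an sgSNHG1 peak of 4.67 at 3119 bp and counts here as a gene with a control peak alone, ZNF844 had a control peak of 5.54 at 4929 bp, and ZNF875 had peaks of 10.3 and 9.19 at 4856 and 4798 bp. The highest peaks of the lists overlapped in 129 of the 131 genes with a peak in both, the exceptions being ZNF358 and ZNF491. Few peaks lay in the gene bodies outside the promoter window. In control 30 genes (12.5%) had such a peak and in sgSNHG1 29 (12.1%), against 21.9% and 18.6% of the other genes of chromosome 19, although the ZNF genes were longer (median 25.5 kb against 14.0 kb).

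The clusters differed in how many promoters had a peak. At the upper end, 24 of 25 genes of ZNF653-ZNF490 and 12 of 13 of ZNF414-ZNF846 had a peak in at least 1 list. At the lower end, 17 of 39 genes of ZNF175-ZNF331 did, and 22 had none, among them ZNF649. ZNF575-ZNF180 had a control peak in 11 of 23 genes and an sgSNHG1 peak in 9, ZNF146-ZNF573 in 14 of 24 in each list, ZNF628-ZNF835 in 8 of 16 in each list, and ZNF264-ZNF446 in 29 and 28 of 41. ZNF101-ZNF254 was the cluster with the largest excess of sgSNHG1 peaks, 33 against 29 of 37 genes. ZNF653-ZNF490 had 24 against 22 and ZNF414-ZNF846 10 against 12. The 22 dispersed genes had 13 control and 12 sgSNHG1 promoters with a peak.

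**Figure D1:**
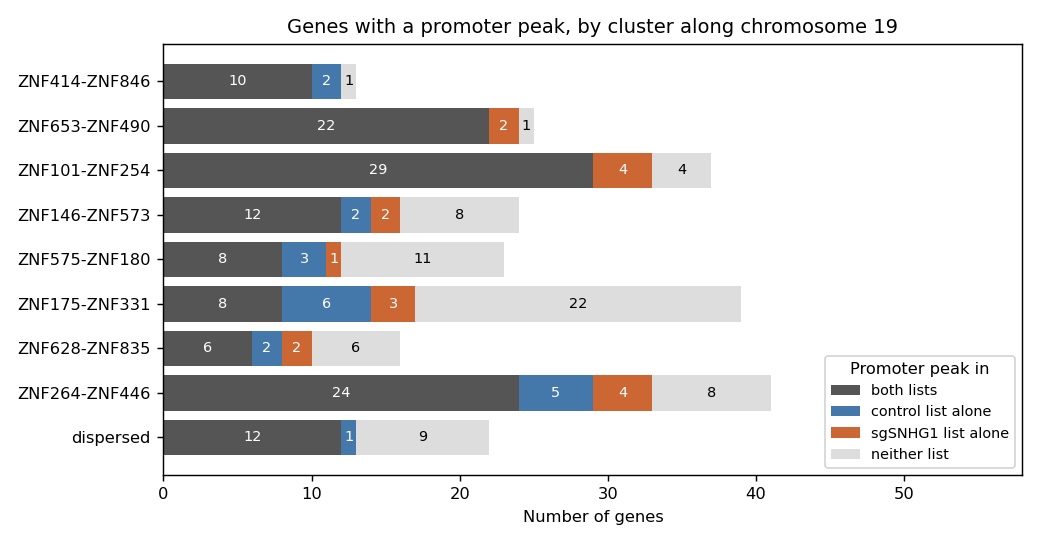
Number of genes (x axis) in each cluster along chromosome 19 (y axis, in chromosome order, dispersed genes last), split by whether a promoter peak was in both lists, in 1 list alone or in neither. ZNF175-ZNF331 has the most genes without a peak (22 of 39), and ZNF101-ZNF254 and ZNF653-ZNF490 have no gene with a peak in the control list alone.

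The genes with a peak in the control list alone had fold enrichments from 3.56 to 7.49. ZNF416 was highest at 7.49 (pileup 23), followed by ZNF524 at 6.03 (pileup 22), ZNF776 and ZNF835 at 5.62, ZNF814 at 5.31 and ZNF221 at 4.99. The largest number of them, 6, lay in ZNF175-ZNF331 (ZNF28, ZNF468, ZNF611, ZNF613, ZNF761 and ZNF813), each at 12 to 15 fragments. ZNF28 and ZNF468 count here through the same peak. ZNF382, a repressor that is silenced by methylation in several cancers, was in this group at 4.06 (pileup 12). It shares that peak with ZNF529, and the summit lay at 462 bp from the TSS of ZNF382 and at -3 bp from that of ZNF529. The remaining genes were ZNF134 and ZNF544 in ZNF264-ZNF446, ZNF561 and ZNF846 in ZNF414-ZNF846, ZNF222 and ZNF45 in ZNF575-ZNF180, ZNF529 in ZNF146-ZNF573 and the dispersed ZNF599.

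The genes with a peak in the sgSNHG1 list alone had fold enrichments from 4.05 to 6.99. ZNF17, ZNF223 and ZNF728 were highest, each at 6.99 (pileup 18), followed by ZNF729 at 6.62, ZNF628 at 6.31 and ZNF772 at 5.88. ZNF676 and ZNF99 joined ZNF728 and ZNF729 in ZNF101-ZNF254. ZNF551 and ZNF586 joined ZNF17 and ZNF772 in ZNF264-ZNF446, ZNF350, ZNF528 and ZNF614 lay in ZNF175-ZNF331, and ZNF490 and ZNF844 in ZNF653-ZNF490. ZNF540 and ZNF567 lay in ZNF146-ZNF573, and ZNF71 joined ZNF628 in ZNF628-ZNF835.

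The ZNF101-ZNF254 cluster had the highest promoter peaks. It holds primate-expanded genes such as ZNF91 and ZNF93, which restrain SVA and LINE-1 retrotransposons. The control median of fold enrichment was 12.1 there and the sgSNHG1 median 11.9, against 6.32 and 6.25 over all other ZNF genes of the chromosome, and its median pileups were 53 and 40. The 5 highest genes of the control list all lay there, ZNF431 at 15.6, ZNF254 at 14.5, ZNF626 at 14.1, ZNF506 at 14.0 and ZNF714 at 13.7. So did the 5 highest of the sgSNHG1 list, ZNF66 at 14.7, ZNF714 at 14.5, ZNF91 at 14.4, ZNF14 at 14.3 and ZNF257 at 14.2. ZNF91 was at 12.7 in the control list (log2 ratio 0.17, counting error 0.27), and ZNF93 was at 12.2 and 13.5. ZNF43 was at 9.28 and 10.7, and ZNF675 at 12 and 12.8, all within 1 counting error between the lists. The counting error is the standard error of the log2 ratio from the Poisson error of both pileups and covers no difference between cultures or clones.

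Outside this cluster some genes came near its medians in at least 1 list, and most genes named here were lower. ZNF132 in ZNF264-ZNF446 was at 12.2 and 10.1, ZNF443 in ZNF653-ZNF490 at 10.7 and 13.1, and ZNF527 in ZNF146-ZNF573 at 11.5 in control and 6.99 in sgSNHG1. ZNF77, a dispersed gene, was at 10.8 and 8.66, ZNF471 at 9.36 and 9.49, ZNF225 at 9.36 and 8.09, and ZNF559 at 6.79 and 9.23. ZNF331, an imprinted gene, was at 8.11 and 9.19, in control level with ZNF808 and in sgSNHG1 the highest of ZNF175-ZNF331, from a peak over 1 kb from the TSS of the gene record. ZNF274, which binds the 3′ ends of other zinc finger genes, was at 5.31 and 4.05. ZNF146, a protein made almost wholly of fingers, was at 8.74 and 8.09, ZNF568, which acts in placental development, at 6.24 and 6.25, and ZNF536, a regulator of neuronal differentiation, at 4.00 in both lists. ZNF420, ZNF507, ZNF114 and ZNF208 had no promoter peak in either list.

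**Figure D2:**
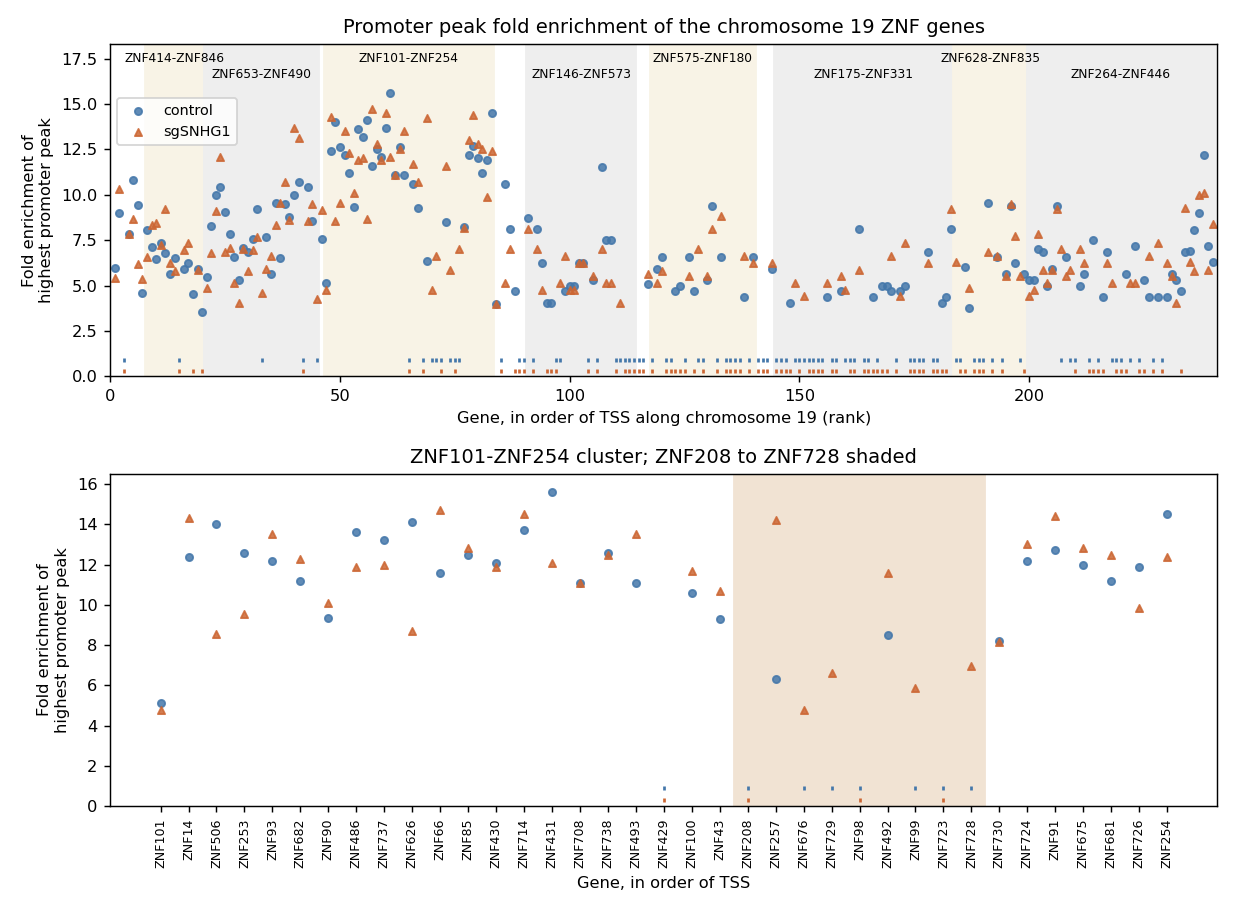
Fold enrichment of the highest promoter peak (y axis) of each gene in order of its TSS along chromosome 19 (x axis, rank), circles for the control and triangles for the sgSNHG1 list, with small ticks at the bottom for genes without a peak in that list. The upper panel shows all 240 genes with the clusters shaded and the lower panel the 37 genes of ZNF101-ZNF254, where the medians are 12.1 and 11.9 and the shaded genes from ZNF208 to ZNF728 have 2 control values (6.34 and 8.48) and 6 sgSNHG1 values (4.78 to 14.2).

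Over the 131 genes with a peak in both lists, the median log2 ratio, dividing sgSNHG1 by control fold enrichment, was -0.011, with 61 genes above and 70 below 0, against -0.074 over 11345 protein-coding genes. The quartiles were -0.22 and 0.20, and the median counting error of a single gene was 0.427, larger than the spread of the ratios (robust SD 0.31). On the scaled pileup, the pileup divided by the smallest local background of its list, the median was 0.086 for the ZNF genes, -0.040 for all protein-coding genes and 0.17 for the other genes of chromosome 19, so that the sign of the median depended on the scale. Pearson's r of log2 fold enrichment between the lists was 0.768 over these 131 genes, which share libraries and partly share peaks. Ratios of at least 0.5 were seen for 7 genes (5.34%, all protein-coding genes 2.02%). Ratios of -0.5 or less were seen for 7 genes (5.34%, all 7.47%), ZNF570 and ZNF569 among them through the same peaks. The other genes of chromosome 19 had 5.27% and 4.06%. On the scaled pileup these counts were 20 and 4. Past 2 counting errors, 1 gene was higher in the sgSNHG1 list (0.763%, all 0.494%) and 3 were lower (2.29%, all 1.34%).

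The peaks were also narrower in the sgSNHG1 list. Width fell short of the control width in 95 of the 131 genes, with a median log2 ratio of -0.28, against -0.40 over all protein-coding genes. Over all protein-coding genes it fell short in 9549 of 11345, so that narrowing was not particular to the ZNF genes. No peak of the control list was under 119 bp wide, whereas the sgSNHG1 list went down to 92 bp. The part of this difference between the lists in the narrower widths was not tested. Median widths were 446 bp and 364 bp for the ZNF genes and 615 bp and 450 bp for all genes.

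By cluster, the median log2 ratio lay between -0.14 in ZNF653-ZNF490 (22 genes, 15 of them lower in sgSNHG1) and 0.21 in ZNF175-ZNF331 (8 genes, 3 of them lower). ZNF414-ZNF846 had 0.19 over 10 genes, ZNF101-ZNF254 0.086 over 29, ZNF628-ZNF835 0.017 over 6, ZNF264-ZNF446 -0.026 over 24, ZNF146-ZNF573 -0.087 over 12, and ZNF575-ZNF180 -0.12 over 8. On the scaled pileup all 8 medians were positive, from 0.016 to 0.33.

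**Figure D3:**
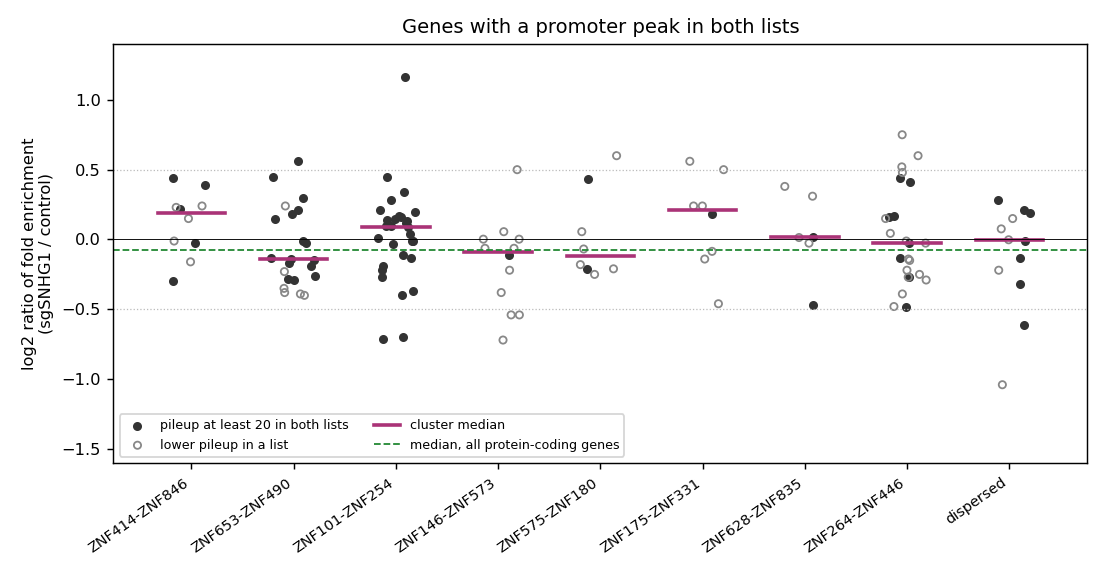
Log2 of sgSNHG1 divided by control fold enrichment (y axis) for each gene with a peak in both lists by cluster (x axis), filled points for pileups of at least 20 in both lists and open points otherwise, with cluster medians as bars and the median of all protein-coding genes (-0.074) dashed. Medians lie between -0.14 and 0.21, and ZNF257 at 1.16 and ZNF302 at -1.04 are the ends of the range.

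Genes were ranked where both pileups reached 20 fragments, which held for 71. ZNF257 stood at the top, with a fold enrichment of 6.34 (pileup 21) in the control and 14.2 (pileup 49) in the sgSNHG1 list, so that its log2 ratio was 1.16 ± 0.38 (counting error). It was the gene past 2 counting errors upward, and the summits of its peaks lay 11 and 9 bp from an annotated start of the gene. ZNF44 followed at 6.49 and 9.57 (log2 ratio 0.56, counting error 0.38), and ZNF799, of the same cluster, was at 9.98 and 13.7 (log2 ratio 0.45). ZNF492 was at 8.48 and 11.6, ZNF8 at 6.87 and 9.29, ZNF559 at 6.79 and 9.23, ZNF226 at 6.55 and 8.83, and ZNF446 at 6.32 and 8.38. Of these 8 genes, ZNF257 alone exceeded 2 counting errors.

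At the lower end ZNF506 was at 14.0 (pileup 56) in the control and 8.55 (pileup 30) in the sgSNHG1 list, log2 ratio -0.71 ± 0.33. ZNF626 was at 14.1 (pileup 58) and 8.69 (pileup 26), log2 ratio -0.70 ± 0.34. Both lie in ZNF101-ZNF254, and both passed 2 counting errors. ZNF557 was at 9.45 and 6.21 (log2 ratio -0.61, counting error 0.39), ZNF837 at 8.04 and 5.78, ZNF787 at 9.52 and 6.87, and ZNF253 at 12.6 and 9.57. ZNF431, the highest promoter of the control list, was at 15.6 and 12.1, and ZNF77 at 10.8 and 8.66. The lowest ratio of all was that of ZNF302, a dispersed gene below the pileup limit of the ranking, at 10.6 (pileup 33) and 5.15 (pileup 13), log2 ratio -1.04 ± 0.47.

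**Figure D4:**
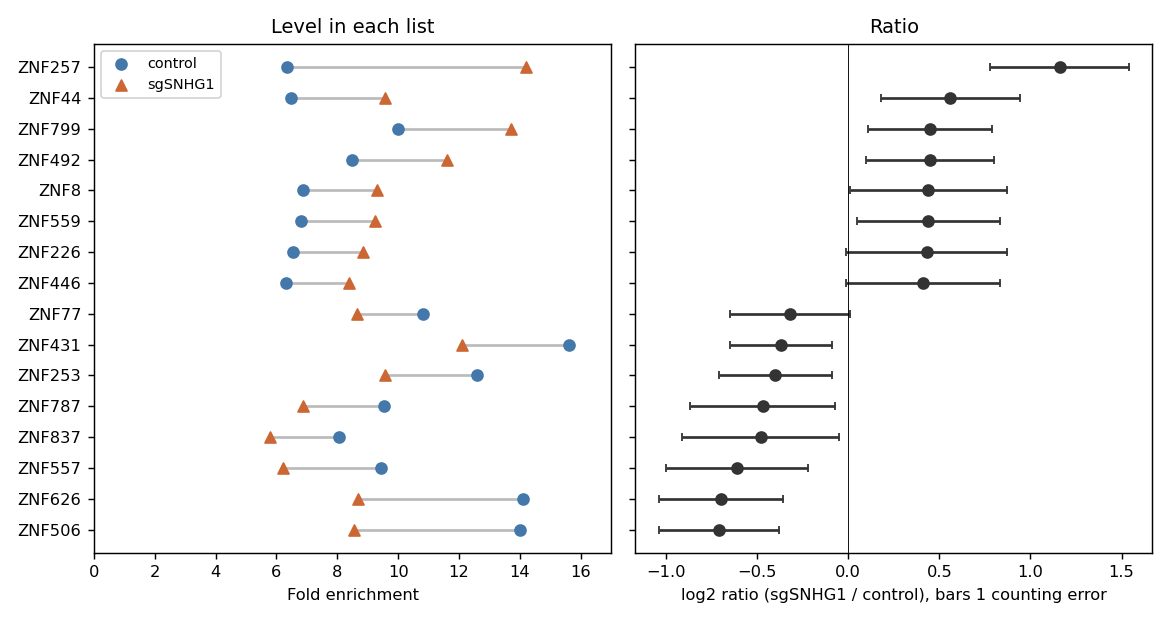
The 8 genes with the highest and the 8 with the lowest log2 ratio among those with a pileup of at least 20 in both lists (y axis). The left panel shows fold enrichment in each list and the right panel the log2 ratio with 1 counting error. ZNF257 has the widest gap, and ZNF506 and ZNF626 are lowest.

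ZNF257 and ZNF492 lie in a stretch where the lists differed over neighbouring genes. It runs over 9 consecutive genes and 992 kb (ZNF208, ZNF257, ZNF676, ZNF729, ZNF98, ZNF492, ZNF99, ZNF723 and ZNF728) and was picked out after its values were seen. In the control list 2 of the 9 genes had a promoter peak, and in the sgSNHG1 list 6 did. ZNF676 was at 4.78 (pileup 12), ZNF729 at 6.62 (pileup 17), ZNF99 at 5.88 (pileup 15) and ZNF728 at 6.99 (pileup 18), each in the sgSNHG1 list alone. These 4 peaks lay at chr19:22215676-22215831, chr19:22286209-22286426, chr19:22784188-22784309 and chr19:23002961-23003351. Over the whole stretch and its 3 kb margins there were 2 control peaks and 7 sgSNHG1 peaks. The seventh, chr19:22421992-22422547, had a fold enrichment of 9.97 (pileup 28) and lay 65 bp from the start of a lncRNA and within 3 kb of another annotated start of ZNF98. ZNF208 and ZNF723 had no peak at any annotated start in either list.

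The genes on either side had peaks in both lists. Of the other 28 genes of ZNF101-ZNF254, 27 had a peak in each list and 0 had one in a single list. Their log2 ratios had a median of 0.041 and ranged from -0.71 to 0.34. The rest of the cluster held 45 control and 46 sgSNHG1 peaks in all. ZNF43, the neighbour upstream, was at 9.28 and 10.7, and ZNF730, the neighbour downstream, at 8.21 and 8.14. Over all 232 runs of 9 neighbouring ZNF genes on the chromosome, the count of genes with an sgSNHG1 peak minus that with a control peak ranged from -3 to 4, and the value 4 was reached by 3 overlapping runs, from ZNF208, ZNF257 and ZNF676 onward. At ZNF257 the local background was 2.47 fragments in the control and 2.52 in the sgSNHG1 list, and at ZNF492 2.66 and 2.44. The smallest background of the lists was 2.20 and 1.72. At ZNF676, ZNF729, ZNF99 and ZNF728 the sgSNHG1 background was 1.72, the smallest of its list, and at the peak beside the lncRNA it was 1.91. A change in copy number of this stretch between the clones was not tested.

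Promoters of this cluster resemble each other. In global alignments the closest other promoter of the cluster was a median of 79.7% identical for the 9 genes of the stretch (range 62.7 to 89.0%) and 83.3% for the other 28 (62.0 to 87.7%). The closest pair was ZNF208 and ZNF676 at 89.0%. Reads with several hits had been removed by the authors, so that a promoter with a near copy can lose fragments in either list.

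Promoters of ZNF101-ZNF254 share an arrangement of motifs that the choice of genes did not use. Counted on both strands of the 300 bases, CCAAT was present in 36 of the 37 promoters of ZNF101-ZNF254 (97.3%). It was in 126 of the 240 ZNF genes (52.5%), in 40.7% of ZNF genes on other chromosomes and in 35.9% of all protein-coding promoters. CCGGAA was present in 26 of the 37 (70.3%), in 46.7% of the ZNF genes, in 37.3% of those on other chromosomes and in 19.5% of all. In 25 of the 37 promoters (67.6%) a CCAAT on the strand of the gene was followed by the next at a distance of 25 to 30 bases, start to start, a spacing chosen after the sequences were seen, and it was 29 in 21 of them and 28 in 4. This pair was present in 0 of the 203 other ZNF promoters of the chromosome, in 17 of the 236 on other chromosomes and in 0.831% of all. ZNF208, ZNF728 and ZNF626 hold the pair, whereas ZNF492 holds a single copy of that motif. The CAAT box letters followed after 20 to 60 bases by the reverse complement of CCGGAA were also present in 25 of the 37 promoters. Like that of the pair, this spacing was not set in advance. This arrangement was in 13 of the 203 other ZNF promoters of the chromosome (6.40%) and in 18 of the 236 on other chromosomes (7.63%). Of all protein-coding promoters 0.716% held it.

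Other clusters carried other letters. CCAAT was present in 76.0% of the promoters of ZNF653-ZNF490 and 65.9% of ZNF264-ZNF446, and in 18.8 to 35.9% of ZNF414-ZNF846, ZNF146-ZNF573, ZNF575-ZNF180, ZNF175-ZNF331 and ZNF628-ZNF835. CCGGAA ranged from 20% in ZNF653-ZNF490 to 61.5% in ZNF175-ZNF331 and 61.0% in ZNF264-ZNF446 outside ZNF101-ZNF254. ACGTCA, part of the cAMP response element, was present in 7 of the 13 promoters of ZNF414-ZNF846 (53.8%), in 0 of 37 of ZNF101-ZNF254 and in 8.89% of all protein-coding promoters. GATGGCG, the core of the YY1 site, was present in 4 of the same 13 (30.8%, all 4.48%). Over the 240 ZNF promoters GGGCGG, the GC box, was present in 62.1% (all 52.4%), GATGGCG in 5.83%, CGCGAGA in 4.17% (all 4.33%), ACTACAA in 5.00% (all 3.12%), ACGTCA in 9.58% and TATAAA, the TATA box, in 7.5% (all 10.8%). All motifs were counted on both strands and separately where they overlapped, and a match is not a bound site.

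**Figure D5:**
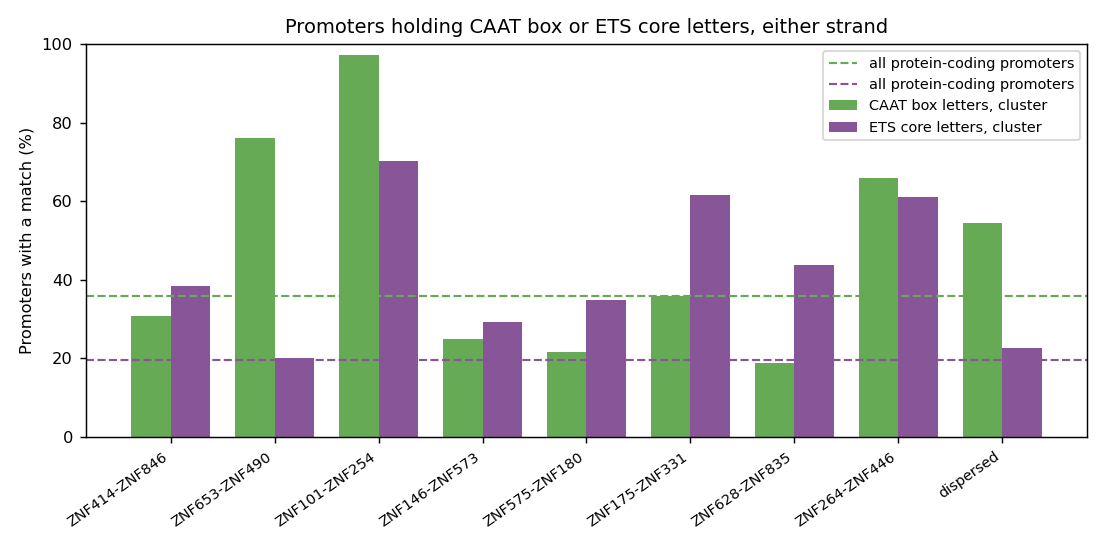
Share of promoters (y axis, %) from 250 bases before to 50 after the TSS that hold the CAAT box letters (CCAAT) or the ETS core letters (CCGGAA) on either strand, by cluster (x axis), with the shares over all protein-coding promoters dashed (35.9% and 19.5%). The CAAT box letters range from 18.8% in ZNF628-ZNF835 to 97.3% in ZNF101-ZNF254.

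Peaks were then counted by the presence of either motif. Of the 126 ZNF genes with CCAAT, 89 (70.6%) had a control peak and 96 (76.2%) an sgSNHG1 peak, against 63 (55.3%) and 53 (46.5%) of the 114 without. Outside ZNF101-ZNF254 the shares were 66.7% and 70.0% of 90 genes with CCAAT, and 55.8% and 46.9% of 113 without. Over all protein-coding genes they were 64.2% and 61.3% with CCAAT, and 62.3% and 57.2% without. By class, 5 of the 21 genes with a peak in the control list alone held CCAAT (23.8%). ZNF28 and ZNF468 count there through the same peak, and so do ZNF382 and ZNF529 through another. With a peak in the sgSNHG1 list alone, 12 of 18 genes held CCAAT (66.7%), 4 of the 12 lying in the stretch from ZNF208 to ZNF728. The share was 64.1% for the 131 genes with a peak in both lists and 35.7% for the 70 with none. Shares by class were not computed over all protein-coding genes. For CCGGAA, 70.5% of the 112 ZNF genes with it had a control peak and 66.1% an sgSNHG1 peak, against 57.0% and 58.6% of the 128 without, and over all protein-coding genes the shares were 84.1% and 80.4% with it and 57.9% and 53.4% without. By class, 11 of the 21 genes in the control list alone held CCGGAA (52.4%) and 6 of the 18 in the sgSNHG1 list alone (33.3%). The share was 51.9% for the genes with a peak in both lists and 38.6% for those with none. Promoters of a cluster are related by duplication and are not independent, so that these shares are given without a test. The GC share of the promoters was a median of 58.2%, and the ratio of observed to expected CpG was 0.718, against 60.3% and 0.697 over all. ZNF101-ZNF254 was lowest in that ratio, at 0.457, and ZNF175-ZNF331, with the lowest share of promoters with a peak, was the highest cluster at 0.812.

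Genes of the machinery that KRAB zinc finger proteins work through were taken as a list. Of 20 genes, 16 had a peak at the TSS of the gene record in each list, against 63.0% and 58.6% of all protein-coding genes. On fold enrichment their median log2 ratio was -0.0017, 8 higher and 8 lower, none past 0.5 and none past 2 counting errors. TRIM28, the corepressor that KRAB domains bind, was at 7.56 and 6.64 (log2 ratio -0.19, counting error 0.44). SETDB1, which trimethylates lysine 9 of histone H3, was at 9.64 and 13.2 (0.46, counting error 0.26). On the scaled pileup its log2 ratio was 0.53, past 0.5, and that of SMARCAD1 was -0.49. ATRX, a chromatin remodeller, was at 9.36 and 6.99 (-0.42, counting error 0.43). CBX1, CBX3 and CBX5, the heterochromatin protein 1 family, differed by -0.076, 0.036 and 0.052. ATF7IP, DNMT1, UHRF1 and SCAND1 had peaks in both lists only at other annotated starts.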

How the data were processed

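ATAC-seq was made from 2 control and 2 sgSNHG1 samples. The authors trimmed reads with cutadapt, aligned them to GRCh38 with BWA, marked duplicates with GATK-Picard, removed duplicates, improper pairs, multiple hits and mitochondrial and blacklisted reads, shifted ends with deepTools, combined the replicates and called peaks with MACS2 in paired-end mode. Versions and thresholds are not given in the sources used here. The deposited score is 10 times the -log10 q, the deposited fold enrichment is a ratio to local background, and -log10 p and -log10 q values were deposited by the authors from a Poisson model.

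Pileup and background were solved from fold enrichment and -log10 p (within 0.001 for 47609 of 47610 control and 42682 of 42682 sgSNHG1 peaks; tested on simulated data) with Python 3.11.15, numpy 2.4.6, pandas 2.3.3, scipy 1.17.1 and Biopython 1.88. Genes came from GENCODE 44. The value of a gene is its highest promoter peak. Proteins were translated from the canonical coding sequence. Fingers were counted as a pattern of paired cysteines and histidines and KRAB as a pattern of its A box. Genes named are the 8 highest and 8 lowest ratios at pileups of at least 20, the 6 strongest per single list, the 5 strongest per list, the strongest of each cluster and a list of known genes, beside those said to be chosen after their values were seen. Members and lists were chosen with earlier results of these data known. Some promoter sequences and marker genes are not reported here. Depth per library is unknown, and no interval or error covers differences between replicates, cultures or clones. Alternatives were other windows, thresholds, start sites, scales, cluster gaps and peak pairings.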

Additional observations from a re-analysis of the deposited data

How the results depend on the processing

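No paired analysis was possible because the replicates of each group were combined into 1 list, and no replicate could be left out. Of 153 alternative values, 139 stayed within the limit set for their kind. For medians it was a 95% interval from the ranks of the genes, and for motif shares a 95% Wilson interval. For single genes it was 1 counting error and for counts a factor of 1.5. Both intervals treat genes as independent, although some share peaks or are related by duplication. With -log10 q of at least 10, 94 control and 78 sgSNHG1 genes kept a peak and 9 genes had one in the sgSNHG1 list alone, while the control count was 25. On the scaled pileup the median log2 ratio was 0.086, that of ZNF146-ZNF573 was 0.016, that of ZNF257 was 1.58, and 20 genes were past 0.5 upward and 4 downward. At a limit of 1 there was 1 gene each way, and with 2 counting errors also required 1 gene higher and 3 lower. With gaps of at most 250 kb ZNF101-ZNF254 broke up, and its largest piece, ZNF100-ZNF91 with 14 of the 37 genes, had 7 genes with both peaks and a median of 0.17, and ZNF628-ZNF835 had no value. The stricter thresholds, limits and gaps leave fewer genes or peaks, and the cause of the shifts on the scaled pileup, which rest on the same genes, was not tested.

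Chosen after seeing the data, the stretch from ZNF208 to ZNF728 had 2 control and 5 sgSNHG1 genes at -log10 q of at least 5, 2 and 6 within 1 kb, and 2 and 7 at any annotated start. In the RefSeq promoters of 210 matched genes (GRCh38.p14) 52.9% held CCAAT and 54.8% held CCGGAA. The single-list counts rest on pileups near the lowest that were called, so that a missing peak is not an absence of open chromatin.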
